A study of Mus musculus with 12 samples.

Results

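Sorted BN1-Tie2-EGFP cells were compared with unsorted cells of the same line after both had been kept in 1% oxygen for 2 days (SH against UH). Differences were taken between 6 of the 12 RNA-seq libraries of the series, 3 SH and 3 UH, and their spread was estimated over all 12. The comparison was made for every gene with a mean of at least 0.1 TPM over the 12 libraries. This took in 18909 of the 45706 genes listed, and 17689 genes were at 0 in every library. TPM is a transcript level corrected for length, and it sums to 1000000 in each library.

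BN1 is a murine hepatoblastoma (HB) cell line from a tumor raised in FVB/N mice with a truncated β-catenin (B) and a missense mutant of NRF2 (N), together with CRISPR targeting of Cdkn2a, and the labels give its genotype as Cdkn2a KO. All groups carried these changes and a Tie2-EGFP reporter, for which stably transfected clones had been pooled. UN stands for unsorted cells at 21% oxygen and UH for unsorted cells that had spent 2 days at 1% oxygen. For the sorted groups, cells with the highest EGFP had been isolated after a first period of 2 days in 1% oxygen and grown on in normoxia (SN), and SH cells were such cells returned to 1% oxygen for 2 days. SH cells had therefore been through sorting, expansion and an earlier hypoxic period that UH cells had not, and these cannot be told apart in this comparison. The titles call all 4 groups EGFP+. The study calls the replicas of a group independent, but neither it nor the labels say whether they were separate cultures. P-values measure the spread between the 3 libraries of a group, pooled over the 4 groups, and this spread may then be technical.

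Tie2, the product of Tek, is the receptor tyrosine kinase for angiopoietins and is found mainly on endothelial cells (ECs), where it stabilizes vessels. Low oxygen stabilizes the α subunits of the hypoxia-inducible factors (HIFs), which raise genes of glycolysis, angiogenic ligands such as VEGF-A and enzymes that modify collagen. Fibrillar collagens are folded in the endoplasmic reticulum by dedicated chaperones and hydroxylases and are crosslinked outside the cell by lysyl oxidases, and in liver they are made mostly by stellate cells and fibroblasts and by tumor cells with mesenchymal features.

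The labels name the cells as hepatoblastoma cells. Alb, the main plasma protein of hepatocytes, was at 0.262, 0.318 and 0.390 TPM in SH and 4.23, 0.757 and 0.698 TPM in UH, and Afp, its fetal relative, at 3.22, 4.71 and 7.30 TPM in SH and 1.15, 1.28 and 1.22 TPM in UH. Both transcripts were thus scarce in all 6 libraries, though Afp was higher in every SH library than in any UH library. In normoxia Afp was at 8.14 to 9.80 TPM in SN and 1.43 to 2.34 TPM in UN. The study names α-fetoprotein among the genes raised in its sorted cells. Of the leukocyte markers, Ptprc (CD45) did not exceed 0.111 TPM and Adgre1 (F4/80) did not exceed 0.0208 TPM in any SH or UH library. Other markers on the list of 19 were present: Cd68 was at 51.2 to 55.9 TPM in SH and 12.9 to 13.7 TPM in UH, Cd14 at 62.4 to 77.0 TPM in SH and 23.6 to 28.3 TPM in UH, Csf1r at 4.68 to 7.002 TPM in SH and 6.86 to 7.48 TPM in UH, and Aif1 at 3.34 to 6.65 TPM in SH and 9.11 to 10.7 TPM in UH. The summed level of the list was 133, 139 and 141 TPM in SH and 59.2, 57.7 and 59.5 TPM in UH, with Cd14 the most abundant, and a part of leukocytes in the results was not tested.

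Some libraries stood apart. SH3 had less of several hypoxia targets than SH1 and SH2 (Vegfa 660 against 930 and 943 TPM, Adm 8.43 against 30.6 and 30.6 TPM) and a larger share of mitochondrially encoded transcripts (4.68% of TPM against 2.94% and 2.66%). UH1 had the smallest median-of-ratios scale factor (0.776, against 0.882 and 0.956 in UH2 and UH3) and the largest share of ribosomal protein transcripts (20.9% of TPM, against 17.5% and 16.5%). Of the normoxic libraries, UN1 differed from UN2 and UN3 in mesenchymal genes, for example in Acta2 (845 against 172 and 162 TPM). More genes were above 0 in SH (22369, 22333 and 21666) than in UH (19424, 19553 and 18939). Across genes, which do not count as replicates, Pearson's r of log2(TPM + 1) was 0.9845 to 0.9892 within SH, 0.9815 to 0.988 within UH and 0.9314 to 0.9365 between SH and UH. The sequencing depth behind the values is unknown.

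Differences are given as log2 fold changes of TPM + 1 with their standard errors (SE), so that changes of genes with low TPM are understated. A gene was called at an adjusted p under 0.05 (limma, Benjamini-Hochberg over all genes tested) and a fold above 2. In SH against UH, 2459 genes were called (13% of those tested), 1447 of them higher in SH (7.65%) and 1012 lower (5.35%). Counts of called genes in the lists below are to be read beside these shares. A fold above 8 was reached by 23 of the higher and 171 of the lower genes. The largest differences were thus mostly losses in the sorted cells, whereas smaller differences were mostly gains. This balance depends on scaling: the median difference over all genes tested was 0.17 (log2) for TPM as deposited and 0.03 after median-of-ratios scaling, and the share of called genes that were higher fell from 58.8% to 43.5% (1022 higher and 1326 lower). The libraries of SH and UH did not overlap for 9777 genes (51.7%), so that a lack of overlap alone says little about a gene.

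**Figure D1:**
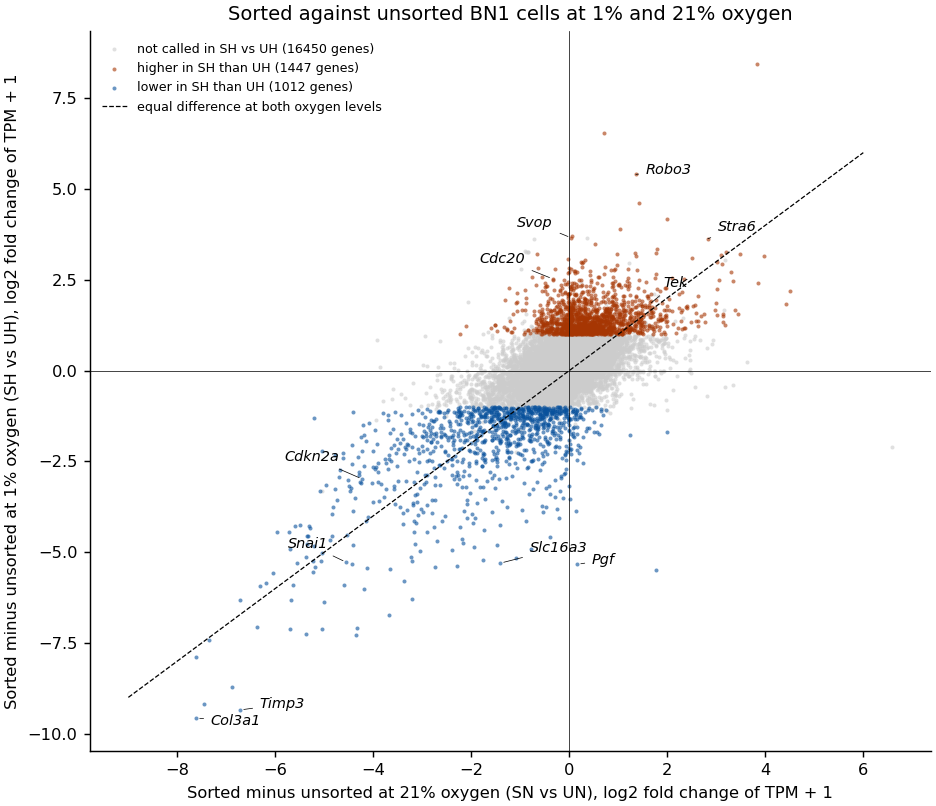
Each point is a gene, with the log2 fold change of TPM + 1 between sorted and unsorted cells at 21% oxygen (SN vs UN) on the x axis and at 1% oxygen (SH vs UH) on the y axis; the dashed line marks equal differences. The 1012 genes lower in SH run down along the line to Col3a1 and Timp3, whereas most of the 1447 higher genes lie close to 0 on the x axis, and Pgf and Cdc20 differ at 1% oxygen alone.

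Tek, the gene whose promoter had driven the reporter used for sorting, was higher in SH. It was at 3.29, 3.00 and 2.83 TPM in SH and at 0.158, 0.226 and 0.0853 TPM in UH, so that the groups did not overlap and UH cells had close to none. The difference was 1.80 ± 0.12 (log2, SE; limma adjusted p = 5.911e-07). Because the cells had been sorted on this promoter, a higher Tek is no independent evidence of an EC state. The normoxic libraries do not enter this difference, though their spread enters its SE. Between SN and UN the difference was 1.62, and the 2 differences were not called different (0.19, limma adjusted p = 0.4513). Tek lies on chromosome 4 (GRCm38, 94739289 to 94874976, + strand). Since the cells had been chosen with the Tie2 promoter, its 250 bases before the start are shown (RefSeq, GRCm38.p6, chr4:94739039-94739288, + strand), 5′ to 3′ and in lower case because none of the motifs given here lies in it on either strand. These were ACGTG for the hypoxia response element core, TGANTCA for AP-1, GGAATG for TEAD factors, CACCTG for an E-box, AGGAAG for ETS factors, TTTGAA for the CHR described with the mitotic genes, and CCAAT for the box of that name:
Tek: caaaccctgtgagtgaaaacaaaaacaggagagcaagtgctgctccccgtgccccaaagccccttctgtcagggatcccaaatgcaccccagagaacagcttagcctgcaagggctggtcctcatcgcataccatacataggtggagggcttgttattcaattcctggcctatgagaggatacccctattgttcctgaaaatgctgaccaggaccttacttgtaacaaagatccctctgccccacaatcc

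EC genes other than Tek differed in both directions. Of 31 EC identity genes 16 were measured at 0.1 TPM or more. Of these, 2 were higher (Tek and Esam) and 3 lower (Eng, Flt1 and Egfl7) in SH. The median difference was 0.20 against 0.17 over all genes. These figures and the sums below include Tek, on whose promoter the cells had been sorted. Esam, an adhesion molecule of EC junctions, was at 7.70, 8.66 and 5.35 TPM in SH and 0.763, 1.09 and 0.658 TPM in UH (2.15 ± 0.22, limma adjusted p = 1.386e-05). Eng, a co-receptor for BMP9 and TGF-β, was at 6.28, 7.24 and 5.39 TPM in SH and 34.8, 43.6 and 41.1 TPM in UH (−2.48 ± 0.44). Flt1, the VEGF receptor 1, was at 4.06, 4.22 and 3.32 TPM in SH and 17.8, 23.1 and 28.0 TPM in UH (−2.28 ± 0.21). Both receptors were thus clearly less abundant in the cells that had been sorted on a Tie2 reporter. Genes that define ECs remained near 0 in both groups: Pecam1 (CD31) reached at most 0.484 TPM, Cdh5 (VE-cadherin) 0.0967 TPM and Kdr (VEGF receptor 2) 0.129 TPM. Stab1, a scavenger receptor of sinusoidal ECs, was at 14.9, 14.3 and 14.1 TPM in SH but ran from 1.16 to 12.8 TPM within UH and was not called (1.38 ± 0.56), though it was called without UH1 (1.99). The summed level of the 31 genes was lower in SH (68.0, 71.8 and 51.9 TPM) than in UH (96.8, 106 and 101 TPM), with Eng the most abundant. Without Eng and Flt1 the sum was 57.7, 60.3 and 43.1 TPM in SH and 44.2, 39.7 and 31.9 TPM in UH, so that the order of the group means turned and the libraries overlapped. Several scarce EC genes were above UH in every SH library without being called. Vwf, von Willebrand factor, was at 1.31, 0.907 and 1.56 TPM in SH and 0.175, 0.447 and 0.0649 TPM in UH (0.88 ± 0.14), and Plvap, a protein of EC fenestrae, at 4.43, 5.07 and 2.87 TPM in SH and 1.73, 1.68 and 1.31 TPM in UH (0.97 ± 0.18). On the scale of TPM + 1 both lay just under 2-fold, while the ratio of mean TPM was 5.49 for Vwf and 2.62 for Plvap. Plvap was called without SH3 (1.16), UH1 (1.02) or UH2 (1.00) and after rescaling without mitochondrial and the 20 highest genes (1.01), and Vwf without UH2 (1.00). The progenitor and EC antigen Cd34 was at 0.626, 0.963 and 0.467 TPM in SH and 0.110, 0.0618 and 0 TPM in UH (0.66 ± 0.11), and the scavenger receptor Stab2 did not exceed 0.434 TPM. With a pseudocount of 0.1 in place of 1, which mutes such genes less, 7 of the 16 were called higher. These were Tek, Esam, Pecam1, Vwf, Plvap, Cd34 and Stab2, and leaving out UH1 or UH2 gave 4 called higher. Tek was the gene of the sort, and Pecam1 and Stab2 reached the filter of 0.1 TPM only through their SH libraries. The calls of these genes are therefore no evidence of a rise in EC genes. In bulk RNA, fewer cells of a type and less RNA per cell cannot be told apart. Of the 1853 EC genes that the study had collected, 1687 were tested, and 125 were higher and 235 lower, with a median of −0.01. In all 21.3% were called, against 13% of all genes tested (7.65% higher and 5.35% lower). Gene lists taken from the study, here and below, are not independent evidence of a direction.

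Cdkn2a, which encodes the cell cycle inhibitors p16INK4A and p19ARF, was much lower in the sorted cells. It was at 7.37, 9.32 and 8.69 TPM in SH and 78.7, 77.1 and 66.4 TPM in UH (−2.99 ± 0.19, limma adjusted p = 4.285e-07), with no overlap. The level in UH was thus 8.76-fold that in SH. TPM are summed over the whole gene (chromosome 4, 89274471 to 89294653, − strand) and do not show the state of the targeted exon. The study found this exon mutated in BN1 by sequencing. Its immunoblots of BN1 showed mutant or truncated p19ARF and no p16INK4A, so the TPM do not stand for intact inhibitors. The mouse genes of the other drivers differed little: Ctnnb1, which encodes β-catenin, was at 358, 362 and 328 TPM in SH and 225, 262 and 300 TPM in UH (0.42 ± 0.12), and Nfe2l2, which encodes NRF2, at 92.9, 102 and 83.6 TPM in SH and 83.7, 94.6 and 103 TPM in UH. Neither was called, and the libraries of Nfe2l2 overlapped. The mutant forms B and N had been delivered on vectors, and these TPM do not separate vector transcripts from those of the mouse genes.

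Fibrillar collagens were among the genes most strongly lowered in SH. Col3a1 was at 2.04, 0.852 and 1.03 TPM in SH and 1273, 2144 and 1824 TPM in UH (−9.57 ± 0.69, limma adjusted p = 1.085e-06), and Col1a2 at 0.432, 0.562 and 0.542 TPM in SH and 714, 1011 and 923 TPM in UH (−9.18 ± 0.47). Col1a1, the other chain of type I collagen, was at 26.3, 24.7 and 15.5 TPM in SH and 2478, 3556 and 3119 TPM in UH (−7.06 ± 0.33). The lowest UH library was thus far above the highest SH library for all 3 chains. Of 26 collagen chains tested, 11 were lower and 3 higher in SH (53.8% called), with a median of −0.26. Not every collagen took part. Col18a1, a basement membrane chain that is the source of endostatin, was higher in SH at 413, 395 and 379 TPM against 72.7, 98.7 and 106 TPM in UH (2.10 ± 0.17), as were the cartilage chains Col9a3 (2.74 ± 0.23) and Col2a1 (1.26 ± 0.13), which were called at 1% oxygen alone. Col4a1, the main basement membrane collagen, was at 136, 137 and 107 TPM in SH and 59.3, 92.4 and 84.3 TPM in UH and was not called (0.70 ± 0.18). The genes lie on chromosomes 1 (Col3a1, 45311538 to 45349706), 6 (Col1a2, 4504814 to 4541544) and 11 (Col1a1, 94936224 to 94953042), all on the + strand of GRCm38.

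Genes that fold and crosslink collagen were lower too, with 15 of 26 genes lower, none higher and a median of −1.07. Serpinh1 (HSP47), the chaperone specific for procollagen, was at 0.467, 0.510 and 0.944 TPM in SH and 362, 420 and 374 TPM in UH (−7.89 ± 0.21, limma adjusted p = 3.787e-10). Its partner Fkbp10, a prolyl isomerase, was at 0.862, 1.29 and 0.725 TPM in SH and 147, 169 and 148 TPM in UH (−6.32 ± 0.29). The lysyl oxidase genes tested were Lox, Loxl1, Loxl2, Loxl3 and Loxl4. Lox was at 0.807, 0.746 and 0.529 TPM in SH and 516, 770 and 918 TPM in UH (−8.73 ± 0.18), and Loxl2 at 2.51, 2.16 and 1.61 TPM in SH and 378, 507 and 553 TPM in UH (−7.27 ± 0.44). Serpinh1, Fkbp10, Lox and Loxl2 were thus each almost silent in SH and abundant in UH. The more general enzymes P4ha1, a collagen prolyl hydroxylase subunit and HIF target (571 against 525 TPM as group means), and P4hb, protein disulfide isomerase (5532 against 6834 TPM), were not called. Other matrix genes among the 15 with the largest falls were Timp3, an inhibitor of metalloproteinases (−9.35 ± 0.19), Rcn3, an endoplasmic reticulum protein of collagen-producing cells (−7.43 ± 0.24), the basement membrane linker Nid1 (−7.12 ± 0.26), and the proteoglycan Bgn (−7.10 ± 0.48). Fn1, fibronectin, was at 4274, 4181 and 4114 TPM in SH and 2403, 4483 and 3926 TPM in UH, so that the groups overlapped.

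**Figure D2:**
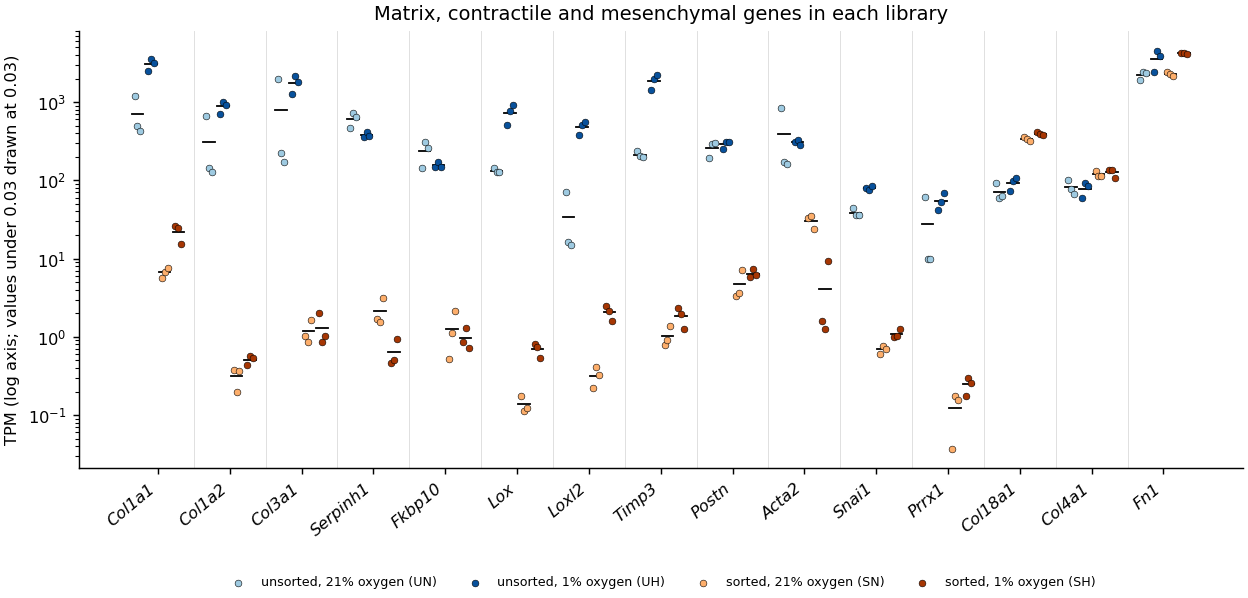
TPM (log axis) of 15 matrix, contractile and mesenchymal genes in each library of the 4 groups; points are libraries and bars group means. The 3 SH libraries lie far below the 3 UH libraries for Col1a1 through Prrx1, above them for Col18a1, and among them for Fn1.

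Of 18 fibroblast and pericyte markers tested, 7 were lower, 1 was higher and 10 were not called, with a median of −0.87. Acta2, smooth muscle actin, was at 1.59, 1.25 and 9.43 TPM in SH and 305, 327 and 284 TPM in UH (−6.28 ± 0.63), and Tagln, an actin-binding protein of the same cells, at 1.29, 1.29 and 2.41 TPM in SH and 135, 110 and 104 TPM in UH (−5.48 ± 0.46). Postn, periostin, was at 5.77, 7.38 and 6.19 TPM in SH and 254, 308 and 308 TPM in UH (−5.29 ± 0.23), and Pdgfra, the PDGF receptor of fibroblasts, at 0.259, 0.336 and 0.345 TPM in SH and 19.1, 28.7 and 37.5 TPM in UH (−4.44 ± 0.30). None of these overlapped. Other markers of these cells differed less, though without overlap. Dcn, decorin, was at 26.0, 32.5 and 17.6 TPM in SH and 49.9, 50.4 and 61.0 TPM in UH (−1.09 ± 0.44, not called, but called after median-of-ratios scaling at −1.31, after quantile normalization at −1.22 and with the 2 groups alone at −1.09), and Fbln2, the most abundant marker of the list, at 1509, 1380 and 1699 TPM in SH and 2558, 3193 and 2712 TPM in UH (−0.88 ± 0.13, not called, but called at −1.11 after median-of-ratios scaling). The summed level of the list was 1564, 1445 and 1749 TPM in SH and 3409, 4128 and 3624 TPM in UH. The marker that was higher was Des, desmin, an intermediate filament protein of stellate and muscle cells, at 9.33, 11.3 and 6.06 TPM in SH and 1.18, 0.909 and 0.997 TPM in UH (2.25 ± 0.23). Myh11, smooth muscle myosin, and the pericyte gene Rgs5 were also above UH in every SH library, but at no more than 0.472 TPM and 0.334 TPM, and of the alternatives run were called only with a pseudocount of 0.1 (1.80 and 1.11). Lrat, which marks quiescent stellate cells, was at 0 in all 6 libraries, and Lum did not exceed 0.0933 TPM. Whether a loss of fibroblast-like cells on sorting had a part in the collagen difference was not tested.

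Regulators of the mesenchymal state divided. Snai1, a repressor of E-cadherin, was at 1.01, 1.02 and 1.25 TPM in SH and 80.1, 75.8 and 84.8 TPM in UH (−5.28 ± 0.12, limma adjusted p = 1.786e-10), and the mesenchymal homeobox gene Prrx1 at 0.177, 0.302 and 0.261 TPM in SH and 41.6, 52.7 and 69.6 TPM in UH (−5.45 ± 0.52). In contrast, Zeb1 was higher in SH at 58.5, 67.6 and 48.6 TPM against 12.9, 20.4 and 35.0 TPM (1.42 ± 0.28), and Snai2 at 21.7, 23.5 and 26.9 TPM against 9.34, 10.5 and 14.3 TPM (1.03 ± 0.16). The call of Snai2 rests on a difference near 2-fold and was lost after median-of-ratios scaling (0.82) or quantile normalization (0.88) and without SH3 (0.95), UH1 (0.91) or UH2 (0.98). Of 20 genes of mesenchymal transition 6 were lower and 3 higher, and Cdh1 (E-cadherin) was at 0.275, 0.350 and 0.258 TPM in SH and 1.27, 1.48 and 1.69 TPM in UH. These did not overlap, and Cdh1 was not called (−0.93 ± 0.20) but was called lower with a pseudocount of 0.1 (−2.0001) and after median-of-ratios (−1.06) or quantile scaling (−1.07). Of 24 epithelial genes, 3 were lower and 2 higher, with a median of 0.39, and without SH3 4 were higher. Krt19, a keratin of bile duct and progenitor cells, was at 4.003, 4.53 and 6.07 TPM in SH and 513, 506 and 424 TPM in UH (−6.37 ± 0.33), while Krt7, which marks the same lineage, was at 14.6, 12.1 and 11.4 TPM in SH and 2.92, 2.57 and 2.52 TPM in UH (1.89 ± 0.23). The bile duct keratins thus went in opposite directions. Ctgf, a secreted target of YAP and TGF-β, was at 50.8, 59.2 and 65.9 TPM in SH and 1063, 1216 and 1104 TPM in UH (−4.25 ± 0.11), but of 27 YAP and TEAD targets 5 were lower and 1 higher with a median of 0.12, and Yap1 itself overlapped between the groups.

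Both populations carried a strong hypoxic profile, and they differed in part of it. Vegfa was at 930, 943 and 660 TPM in SH and 716, 940 and 1024 TPM in UH, against group means of 107 TPM in SN and 103 TPM in UN. Bnip3, a mitophagy receptor and HIF target, was at 931, 1007 and 802 TPM in SH and 826, 808 and 952 TPM in UH. The SH and UH libraries overlapped for both genes. Of 17 glycolytic genes 1 was called (Aldoc, lower in SH, −1.83 ± 0.39), with a median of 0.05. Of 35 other hypoxia targets, 10 were lower and 1 higher in SH (median −0.23), and without SH3, the library with the weakest hypoxic profile, 6 were lower. Tfrc, the transferrin receptor, was the higher one (1.39 ± 0.21).

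Slc16a3 (MCT4), the lactate exporter of glycolytic cells, was at 0.970, 0.853 and 1.08 TPM in SH and 70.4, 84.6 and 75.5 TPM in UH (−5.30 ± 0.31, limma adjusted p = 2.199e-07). Car12, a carbonic anhydrase that buffers acid outside the cell, was at 3.79, 3.73 and 1.69 TPM in SH and 78.0, 103 and 116 TPM in UH (−4.65 ± 0.48). Both genes were thus far lower in SH, whereas the summed level of the glycolytic genes was 58250, 53590 and 49120 TPM in SH and 46590, 48090 and 46140 TPM in UH. The metallothionein Mt2 was at 92.5, 98.8 and 101 TPM in SH and 2307, 1837 and 1767 TPM in UH (−4.32 ± 0.17). Of the oxygen sensors and HIF subunits, 3 of 9 were lower and 1 higher: Hif1a was at 49.4, 53.9 and 36.4 TPM in SH and 67.6, 107 and 135 TPM in UH (−1.09 ± 0.23), Epas1 (HIF-2α) at 0.864, 0.755 and 0.387 TPM in SH and 2.49, 3.54 and 4.22 TPM in UH (−1.40 ± 0.26), and the hydroxylase gene Egln3 at 30.2, 29.8 and 18.3 TPM in SH and 114, 110 and 126 TPM in UH (−2.15 ± 0.29). Arnt2, a β subunit, was higher in SH (1.06 ± 0.19). Both Hif1a and Arnt2 differed by little more than 2-fold: Hif1a was not called without SH3 (−0.93) or UH3 (−0.88), nor Arnt2 without SH1 (0.99), SH2 (1.00) or UH1 (0.92), after median-of-ratios scaling (0.87) or after quantile normalization (0.92).

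Of 22 secreted ligands that act on vessels, 8 were lower in SH, 1 was higher and 13 were not called, with a median of −0.14. Pgf (placental growth factor, a ligand of VEGF receptor 1) was at 4.39, 4.09 and 1.61 TPM in SH and 178, 172 and 152 TPM in UH (−5.34 ± 0.24, limma adjusted p = 2.925e-08). At 21% oxygen it was low in both populations (0.660 TPM in SN and 0.476 TPM in UN), and the difference depended on oxygen (−5.50, limma adjusted p = 3.609e-06). Adm, adrenomedullin, was at 30.6, 30.6 and 8.43 TPM in SH and 132, 129 and 130 TPM in UH (−2.63 ± 0.75), and without SH3 it was not called (−2.05, limma adjusted p = 0.06466). Apln, apelin, was at 8.00, 7.91 and 4.84 TPM in SH and 37.1, 45.1 and 46.8 TPM in UH (−2.50 ± 0.25), and Angptl4, an inhibitor of lipoprotein lipase that also acts on vessels, at 20.2, 19.6 and 14.02 TPM in SH and 80.2, 94.2 and 85.2 TPM in UH (−2.22 ± 0.17). For these peptides no SH library reached the lowest UH library. Hgf, the ligand of MET, was the gene that was higher, at 1.52, 2.22 and 1.86 TPM in SH and 0.155, 0.193 and 0.142 TPM in UH (1.29 ± 0.33).

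**Figure D3:**
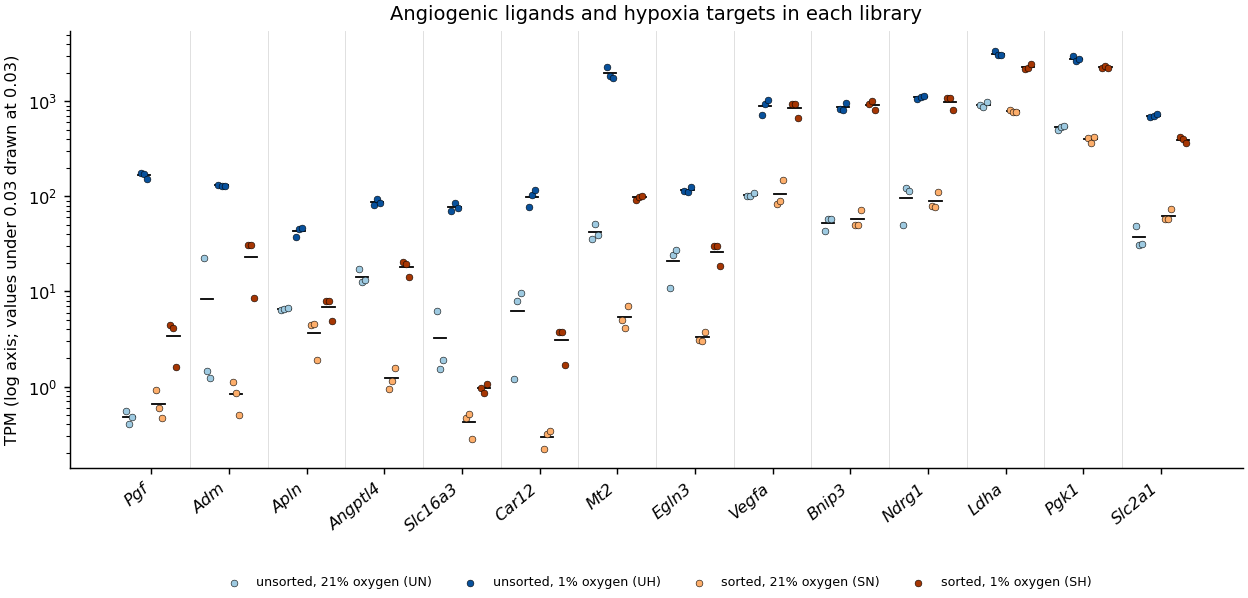
TPM (log axis) of 14 angiogenic ligands and hypoxia targets in each library of the 4 groups; points are libraries and bars group means. Pgf, Slc16a3 and Car12 are far higher in UH than in the other 3 groups, whereas Vegfa, Bnip3 and Ndrg1 stand at like levels in SH and UH and well above both normoxic groups.

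Genes of mitosis made up the most uniform group that was higher in SH. Of 32 mitotic genes 28 were higher and none lower (87.5%), with a median of 1.497 against 0.17 over all genes. Cdc20, which activates the anaphase-promoting complex, was at 53.3, 54.6 and 56.2 TPM in SH and 9.70, 7.52 and 8.98 TPM in UH (2.52 ± 0.13, limma adjusted p = 6.067e-08). The phosphatase gene Cdc25c, which switches on CDK1, was at 24.7, 25.2 and 18.2 TPM in SH and 2.65, 2.35 and 2.73 TPM in UH (2.72 ± 0.14), and the kinetochore gene Cenpf at 28.1, 35.2 and 25.8 TPM in SH and 1.99, 6.88 and 5.76 TPM in UH (2.49 ± 0.40). Cdk1, the mitotic kinase, was at 135, 143 and 140 TPM in SH and 58.1, 72.7 and 64.4 TPM in UH (1.09 ± 0.16), and Ube2c, the ubiquitin-conjugating enzyme of the same complex as Cdc20, at 138, 131 and 128 TPM in SH and 47.3, 42.5 and 44.4 TPM in UH (1.54 ± 0.13). In none of these 5 genes did the groups overlap. The 4 mitotic genes that were not called were Ccnb2, Melk, Bub1 and Foxm1. The count was 22 after median-of-ratios scaling and 23 after quantile normalization, and Cdk1 was among those lost under the first (0.87).

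The difference in mitotic genes was found at low oxygen. In SN against UN none of the 32 was higher and 1 was lower, with a median of 0.02, and the change of the difference with oxygen was called for 26 of 32, all more positive at 1% oxygen. Summed over the list, the level was 1649, 1715 and 1532 TPM in SH and 503, 556 and 625 TPM in UH, beside 2605, 2470 and 2118 TPM in SN and 2385, 2213 and 2283 TPM in UN. The level was thus alike in the normoxic populations, lower in hypoxic sorted cells and lowest in hypoxic unsorted cells. Genes of DNA replication were less affected: 12 of 37 were higher (32.4%), none was lower and the median was 0.66, and after median-of-ratios scaling 5 were higher. Mcm4, a subunit of the replicative helicase, was at 18.9, 18.4 and 30.8 TPM in SH and 7.25, 8.73 and 9.77 TPM in UH (1.28 ± 0.18), whereas Pcna, the sliding clamp, had group means of 81.6 and 81.4 TPM.

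**Figure D4:**
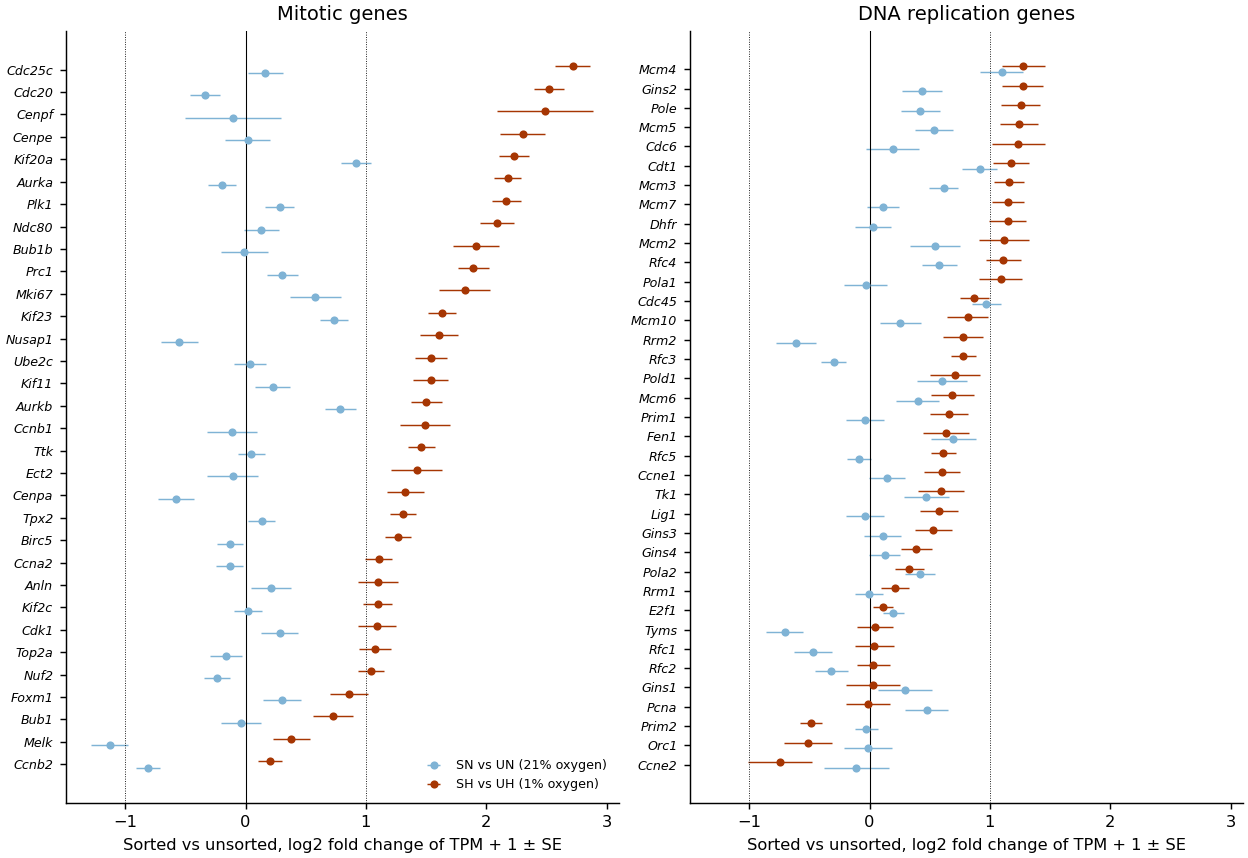
Log2 fold changes of TPM + 1 (± SE) between sorted and unsorted cells for each tested mitotic (left, 32) and DNA replication gene (right, 37), at 1% oxygen (SH vs UH) and 21% oxygen (SN vs UN); dotted lines mark a 2-fold difference. In the left panel the points for 1% oxygen run up to 2.72 at Cdc25c, while those for 21% oxygen scatter around 0.

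Promoters of mitotic genes are known for 2 short elements, the cell cycle gene homology region (CHR, TTTGAA) and the CCAAT box. These were looked for on both strands in RefSeq windows of 250 bases before to 50 bases after the start (GRCm38.p6), a search that was added after the values had been seen. Of the 32 mitotic genes 26 had a window. TTTGAA was present in 19 of the 26 (73.1%), against 17.9% of all 32851 windows, and within 50 bases of the start in 17 of the 26 (65.4%), against 4.94% of all. CCAAT was present in 19 (73.1%), against 37.4%. These shares describe mitotic genes as a class and carry no information on the difference between SH and UH. The 250 bases before the start of 3 of the higher genes show the arrangement, with TTTGAA and CCAAT (or their reverse complements) in capitals, 5′ to 3′ on the strand of the gene. They are Cdc20 (chr4:118437344-118437593, − strand), Cdk1 (chr10:69352913-69353162, − strand) and Ube2c (chr2:164769679-164769928, + strand):
Cdc20: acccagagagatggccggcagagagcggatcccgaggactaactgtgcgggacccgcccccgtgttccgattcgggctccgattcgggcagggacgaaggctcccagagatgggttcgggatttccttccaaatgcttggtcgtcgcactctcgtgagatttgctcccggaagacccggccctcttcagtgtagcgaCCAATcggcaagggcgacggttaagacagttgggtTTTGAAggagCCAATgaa
Cdk1: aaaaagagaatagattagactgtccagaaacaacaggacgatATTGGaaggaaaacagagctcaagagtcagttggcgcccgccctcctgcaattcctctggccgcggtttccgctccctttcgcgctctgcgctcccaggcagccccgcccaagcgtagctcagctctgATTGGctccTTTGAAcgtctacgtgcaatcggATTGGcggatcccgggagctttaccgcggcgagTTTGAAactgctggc
Ube2c: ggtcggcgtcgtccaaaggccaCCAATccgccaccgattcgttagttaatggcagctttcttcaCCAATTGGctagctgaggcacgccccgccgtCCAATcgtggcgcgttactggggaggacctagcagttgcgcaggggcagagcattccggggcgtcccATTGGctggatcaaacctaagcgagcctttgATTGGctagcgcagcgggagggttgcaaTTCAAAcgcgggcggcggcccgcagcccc
The TTTGAA nearest the start begins 18 bases before it in Cdc20, 15 in Cdk1 and 29 in Ube2c. Windows were found for 11707 of 18880 tested symbols, and motif shares over all called genes are not compared here because of the genes without one.

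Among called genes with a symbol other than a Gm number or clone name, Robo3 was the most increased on the scale of TPM + 1. This receptor of the Roundabout family, known from axon guidance, was at 185, 175 and 136 TPM in SH and 2.86, 3.11 and 2.74 TPM in UH (5.40 ± 0.17, limma adjusted p = 1.443e-09), a ratio of mean TPM of 56.9. That ratio was larger for Ptprv (130.3) and Glrp1 (57.39), which were less abundant than Robo3 in both groups. In normoxia Robo3 was at 3.06 TPM in SN and 0.565 TPM in UN, and the difference was larger at 1% oxygen by 4.04 (limma adjusted p = 2.253e-06). It lies on chromosome 9 (37415669 to 37433246, − strand). Svop, which encodes a synaptic vesicle protein, was at 17.3, 14.9 and 13.1 TPM in SH and 0.206, 0.459 and 0.174 TPM in UH (3.65 ± 0.14) and was near 0 in both normoxic groups. Both genes were thus high in 1 of the 4 groups. Stra6, the cellular receptor for retinol-binding protein, was at 185, 160 and 86.9 TPM in SH and 9.34, 10.3 and 10.9 TPM in UH (3.63 ± 0.22), and Trf, transferrin, at 46.4, 49.0 and 44.0 TPM in SH and 3.77, 6.46 and 3.26 TPM in UH (3.15 ± 0.29). These were higher in the sorted cells at both oxygen levels, by 2.83 and 3.97 in normoxia.

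Csf2 and Il11, which encode secreted cytokines, were among the 15 largest rises named. Csf2 (GM-CSF) was at 105, 148 and 159 TPM in SH and 8.03, 7.84 and 8.58 TPM in UH (3.90 ± 0.49), while its means in normoxia were 158 TPM in SN and 89.3 TPM in UN. Il11, a cytokine of the IL-6 family, was at 99.97, 92.4 and 110 TPM in SH and 9.42, 8.89 and 10.8 TPM in UH (3.25 ± 0.20), with a like difference in normoxia (3.19). Of 22 chemokines 3 were higher and 3 lower. Cx3cl1 (fractalkine) was at 55.8, 60.5 and 43.9 TPM in SH and 6.07, 6.71 and 7.01 TPM in UH (2.83 ± 0.34), and Cxcl12, the ligand of CXCR4, at 190, 189 and 222 TPM in SH and 441, 527 and 580 TPM in UH (−1.35 ± 0.14). Cxcl12 had differed more in normoxia (−3.71), and the change with oxygen was called.

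Genes of antigen presentation differed in both directions. Nlrc5, the transactivator of MHC class I genes, was at 4.96, 9.19 and 5.74 TPM in SH and 0.472, 0.610 and 0.678 TPM in UH (2.23 ± 0.26), and Tap1, a subunit of the peptide transporter, at 36.7, 39.8 and 25.8 TPM in SH and 6.12, 7.03 and 7.40 TPM in UH (2.14 ± 0.20). The class I heavy chains H2-K1 (250 against 517 TPM as group means, −1.05 ± 0.15) and H2-D1 (237 against 488 TPM, −1.05 ± 0.14) were lower in SH, close to 2-fold, and were not called without SH3 (−0.96 and −0.95) or after quantile normalization (−0.89 for both), nor H2-D1 after rescaling without mitochondrial and the 20 highest genes (−0.9997), while B2m, their light chain, had group means of 1725 and 1781 TPM. H2 genes resemble each other closely, so that reads may be divided among them uncertainly. Over the list of 43 interferon and antigen presentation genes, 5 were higher and 9 lower (median −0.25), and without SH3 5 were lower. In normoxia none of the 43 was higher and 16 were lower in sorted cells. The change with oxygen was called more positive for 10 and more negative for 1, beside 8.08% and 2.18% of all genes tested.

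Liver functions showed no common direction. Of 21 hepatocyte transcription factors 3 were higher and 2 lower. Cebpa, a factor of mature hepatocytes, was at 11.1, 9.23 and 8.12 TPM in SH and 1.91, 2.72 and 3.10 TPM in UH (1.56 ± 0.25), whereas Cebpb (−1.13 ± 0.17) and Cebpd (−1.505 ± 0.15), which respond to inflammation, were lower. Of 38 plasma protein genes 7 were higher and 5 lower, with a median of −0.01. Besides Trf and Afp, Hgfac, the protease that activates HGF, was higher at 37.4, 37.9 and 29.6 TPM against 5.88, 5.96 and 6.69 TPM (2.32 ± 0.15). Lower ones included the acute phase protein Hp (−1.78 ± 0.32) and the selenium carrier Sepp1 (−1.63 ± 0.21). Of the 194 liver genes collected by the study, 173 were tested and 25 were higher and 24 lower (28.3% called, against 13% of all genes). Rarres2 (chemerin), one of these, was at 23.5, 23.01 and 21.8 TPM in UH and was listed at 0 in all 3 SH libraries.

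Targets of the 2 driver pathways did not move as blocks, though the summed level of each list was higher in SH. For β-catenin targets the sum was 474, 466 and 513 TPM in SH and 286, 316 and 334.5 TPM in UH, with Myc the most abundant. For NRF2 targets it was 8586, 7860 and 8244 TPM in SH and 7200, 6785 and 7521 TPM in UH, with Fth1 the most abundant. Of 19 β-catenin targets 4 were higher and 1 lower, with a median of 0.43: Ccnd1, cyclin D1, was at 103, 106 and 136 TPM in SH and 29.4, 34.2 and 35.1 TPM in UH (1.77 ± 0.17), and Lef1, a nuclear partner of β-catenin, at 9.16, 6.66 and 9.45 TPM in SH and 1.59, 3.39 and 2.33 TPM in UH (1.48 ± 0.25). Rnf43, which removes Wnt receptors from the cell surface, was lower (−1.71 ± 0.28). These 3 differences had the same sign in normoxia. Of 41 NRF2 targets 5 were higher and 5 lower, with the glutathione transferase gene Gsta4 at 54.7, 59.1 and 99.5 TPM in SH and 11.97, 10.03 and 10.1 TPM in UH (2.58 ± 0.51) and Gstm2 at 19.9, 21.5 and 13.9 TPM in SH and 84.3, 87.6 and 86.2 TPM in UH (−2.19 ± 0.14). Members of one enzyme family thus moved apart, and such genes share sequence with close copies.

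Adhesion and matrix turnover genes differed in both directions. Of 29 integrin and laminin genes 7 were higher and 2 lower. Lama4, a laminin chain of vessel basement membranes, was at 0.0630, 0.0712 and 0.0446 TPM in SH and 25.4, 40.7 and 45.1 TPM in UH (−5.13 ± 0.20), and the collagen receptor chain Itga11 fell as well (−4.39 ± 0.33). Lama5, a chain of epithelial basement membranes, was at 104, 99.3 and 64.6 TPM in SH and 27.7, 36.8 and 28.0 TPM in UH (1.48 ± 0.19), and its receptor chain Itga3 at 178, 170 and 169 TPM in SH and 52.0, 66.9 and 70.2 TPM in UH (1.45 ± 0.16). Of 31 metalloproteinases, other proteases and inhibitors, 9 were lower and 4 higher. Mmp3, stromelysin, was at 7.73, 8.67 and 6.58 TPM in SH and 147, 140 and 144 TPM in UH (−4.07 ± 0.26), and Mmp9, a gelatinase, at 23.4, 14.99 and 18.4 TPM in SH and 2.90, 2.54 and 1.80 TPM in UH (2.54 ± 0.26).

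Of 32 genes of the integrated stress and unfolded protein responses, 3 were higher and 1 lower (12.5% called, near the 13% of all genes), led by the amino acid transporter chain Slc7a5 at 135, 126 and 122 TPM in SH and 33.2, 38.9 and 37.2 TPM in UH (1.78 ± 0.12). Of 24 cholesterol synthesis genes 1 was higher and 3 lower (16.7% called), with Sqle, squalene epoxidase, at 24.0, 23.2 and 26.9 TPM in SH and 66.1, 78.1 and 84.9 TPM in UH (−1.59 ± 0.18). Of 13 mitochondrially encoded genes, 3 were higher, with mt-Co2 at 3470, 2647 and 4530 TPM in SH and 1118, 801 and 859 TPM in UH (1.92 ± 0.39), and without SH3, which had the largest mitochondrial share, 1 was higher. Of 8 leukocyte markers tested, 2 were higher, Cd68 (1.93 ± 0.18) and Cd14 (1.38 ± 0.12), both of which are also made by other cells. Of the 178 hypoxia genes collected by the study 176 were tested, and 11 were higher and 31 lower (23.9% called, against 13% of all genes), with a median of −0.20.

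**Figure D5:**
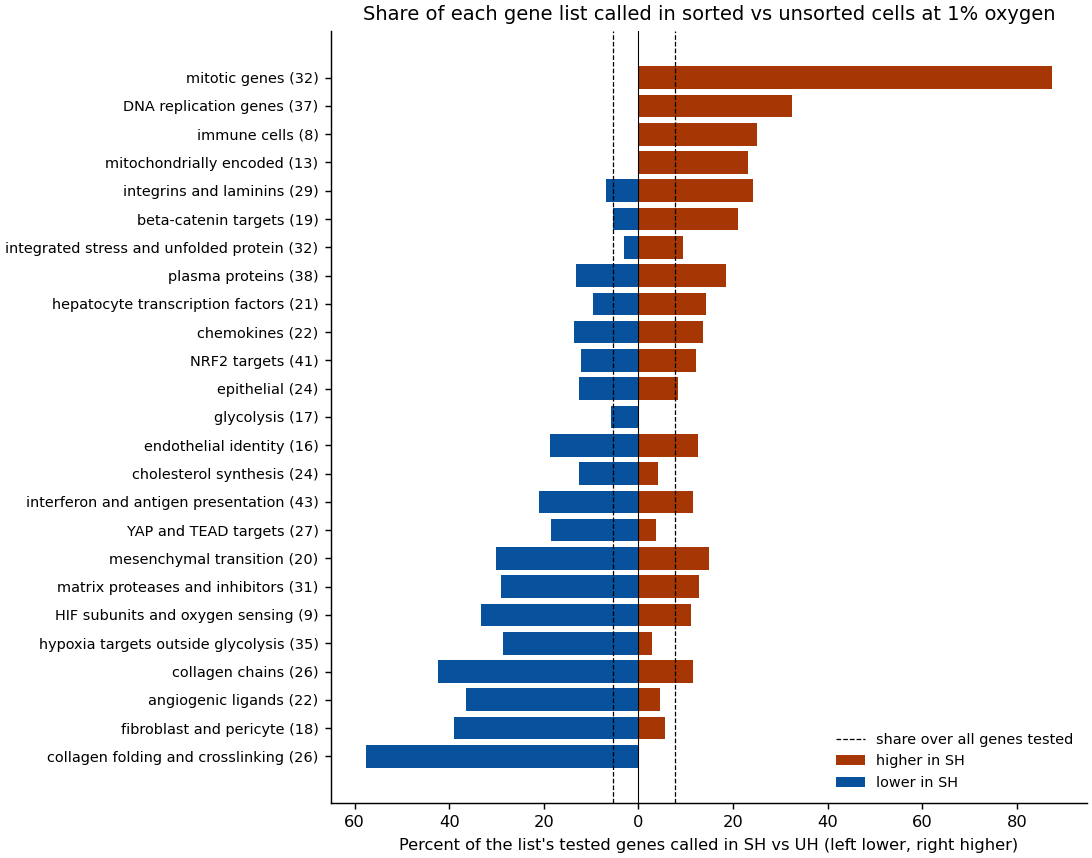
Percent of the tested genes of each list that were called higher (right) or lower (left) in SH than in UH, with the number tested in brackets; dashed lines mark the shares over all genes tested, 7.65% and 5.35%. Mitotic genes reach 87.5% higher, and collagen folding and crosslinking genes 57.7% lower.

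The same populations were also compared at 21% oxygen (SN against UN), in libraries that enter the hypoxic comparison only through the estimate of spread. SH cells were SN cells returned to 1% oxygen, so both comparisons share the sort and the expansion after it. Agreement between them is therefore no independent check, and no p-value here measures the spread between sorts. They differed at 2037 genes (10.8%), 606 higher (3.2%) and 1431 lower (7.57%) in sorted cells. Of the 1012 genes lower in SH, 941 (93.0%) had the same sign in normoxia and 630 (62.3%) were called lower there too, among them Col3a1, Serpinh1, Snai1 and Cdkn2a. Of the 1447 genes higher in SH, 1095 (75.7%) had the same sign and 290 (20%) were called higher there too, among them Tek, Stra6, Trf and Il11. Most genes lower in SH were thus called lower at both oxygen levels, while most of those higher were called at 1% oxygen alone.

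Whether a difference depended on oxygen was tested directly as (SH − UH) − (SN − UN). It was called for 1939 genes (10.3%), more positive in hypoxia for 1527 (8.08%) and more negative for 412 (2.18%). These counts depended on scaling, with 903 more positive and 783 more negative after median-of-ratios scaling, and on UN1, without which 636 were more negative. Of the genes higher in SH, 606 (41.9%) were not called in normoxia and had a called change with oxygen, and for 531 (36.7%) the change was not called. Of those lower, these numbers were 176 (17.4%) and 204 (20.2%). Of the collagen chains, 5 had a more positive and 3 a more negative difference in hypoxia, and without UN1 these counts were 5 and 8.

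A few genes were called in opposite directions at the 2 oxygen levels, 20 of those higher and 2 of those lower in SH. Tap1 was one (2.14 at 1% and −1.07 at 21% oxygen). P2rx7, an ATP-gated channel, was at 18.6, 15.2 and 8.02 TPM in SH and 2.15, 1.89 and 1.84 TPM in UH (2.26 ± 0.34), against −1.24 in normoxia. Relt, a receptor of the TNF family, was at 20.1, 19.4 and 13.1 TPM in SH and 3.59, 4.05 and 4.26 TPM in UH (1.88 ± 0.24), against −1.06. The 2 genes that were lower in SH and higher in SN were Il13ra2, a decoy receptor for IL-13, at 12.1, 14.8 and 12.2 TPM in SH and 45.4, 42.6 and 45.1 TPM in UH (−1.70 ± 0.22, against 1.99), and Hp (−1.78, against 1.24).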

How the data were processed

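RNA-seq of 12 libraries (3 in each of UN, UH, SN and SH) was analysed. Groups were taken from the labels. The deposited table holds TPM per gene, made by the authors with Salmon in nf-core/rnaseq 3.12.0 and summing to 1000000 in each library. The submitters' processing notes name mm10, and the annotation release is not given in the sources used here. Read counts were not used here, so no interval for counting error is given. The table had 0 columns without a sample.

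Genes averaging 0.1 TPM or more were analysed as log2(TPM + 1) in limma 3.58.1 (R 4.3.3), fitting the 4 group means with trended empirical Bayes moderation. This replaced the authors' test on counts. Genes were called at an adjusted p under 0.05 and a log2 fold change beyond 1. The script was tested on simulated data. Coordinates came from GENCODE M21, where 45143 identifiers (98.8%) were found, and promoters from RefSeq (GRCm38.p6). Tables and figures used Python 3.11.15, pandas 2.3.3, numpy 2.4.6 and matplotlib 3.10.9.

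The comparison and the gene lists were chosen with earlier results of these data known. Genes were named by a rule: Tek and the drivers, the 15 largest differences in each direction, up to 4 called genes per list and direction, up to 6 per oxygen class and direction, and defining markers of cell types. Members of a list that were not called, and Cdk1, Ube2c, Col4a1, H2-K1 and H2-D1, were named after their values had been seen. Not all are printed, and 1 gene is not reported here. Alternatives were another pseudocount, filter, scaling, moderation, fit of the 2 groups alone, a replicate block, and leaving out each library.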

Additional observations from a re-analysis of the deposited data

Results flagged for a closer look

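These results were singled out because the difference between sorted and unsorted cells changed with oxygen in a direct test, (SH − UH) − (SN − UN), called at an adjusted p under 0.05 (limma, Benjamini-Hochberg) and beyond 1 on the log2 scale. The difference was more positive in hypoxia for 1527 genes and more negative for 412. Values below are this change, on the log2 scale of TPM + 1.

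Of the mitotic genes named, the change was 2.86 for Cdc20, 2.59 for Cenpf, 2.55 for Cdc25c, 1.51 for Ube2c, 1.51 for Melk and 1.01 for Ccnb2. The value of Ccnb2 lies at the threshold, and its call was lost in 6 of 20 alternatives, with 0.69 after median-of-ratios scaling, 0.84 after quantile normalization, 0.95 without SH3, 0.97 without SN3, 0.96 without UH2 and 0.98 without UN2. Of receptors, channels and other membrane proteins it was 4.04 for Robo3, 3.61 for Svop, 3.5 for P2rx7, 2.94 for Relt, 1.5 for Slc7a5, 1.36 for Esam, −1.72 for Flt1 and −3.69 for Il13ra2. Of cytokines and antigen presentation genes it was 3.47 for Cx3cl1, 3.21 for Tap1, 3.14 for Nlrc5, 2.86 for Csf2 and 2.36 for Cxcl12.

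The change was negative for most matrix and contractile genes named, with −3.08 for Acta2, −2.92 for Loxl2, −2.83 for Ctgf, −2.77 for Bgn, −2.65 for Itga11, −2.63 for Timp3, −2.14 for Mmp3, −2.07 for Nid1 and −1.84 for Lox. Over whole lists it was called more positive and more negative for 5 and 3 collagen chains, and for 2 and 3 folding and crosslinking genes. The counts were 2 and 2 for fibroblast and pericyte markers, and 5 and 6 for matrix proteases and inhibitors. Of all genes tested, 8.08% were more positive and 2.18% more negative. The call of Acta2 was lost in 11 of 20 alternatives (limma adjusted p from 0.05072 to 0.07782), namely with no filter and without any one library other than SH3 and UN1. In these the change itself stayed about as large, from −2.67 to −3.23. With a pseudocount of 0.1, Lox (−0.68) and Loxl2 (−1.80) were not called. It was positive for the cartilage collagens Col9a3 (2.65) and Col2a1 (1.78), for Cdh1 (1.74), for Des (1.76) and for Snai2 (1.38). The hypoxia targets named, and the vessel ligands Pgf and Apln, lay on the negative side, at −5.5 for Pgf, −3.89 for Slc16a3, −2.46 for Car12, −1.93 for Aldoc, −1.73 for Apln and −1.55 for Mt2. Over the list of 22 vessel ligands the change was called more positive for 4 and more negative for 3, beside 8.08% and 2.18% of all genes tested. The call of Aldoc was lost in 9 of 20 alternatives (limma adjusted p from 0.05279 to 0.0758), at changes from −1.75 to −2.01. That of Car12 was lost in 6, among them a pseudocount of 0.1 (−1.46) and without SH3 (−2.18), SN2 (−2.44), SN3 (−2.43), UH2 (−2.42) or UH3 (−2.33). Liver and metabolic genes were divided, at 3.34 for Gsta4, 2.71 for Cebpa, 1.1 for Hgfac, −1.08 for Cebpd, −1.25 for Sqle, −3.02 for Hp and −4.18 for Rarres2, which is listed at 0 in SH. Hgfac was not called with a pseudocount of 0.1 (0.56), after median-of-ratios (0.86) or quantile scaling (0.77) or without UN2 (0.997), nor Cebpd without SH3 (−0.99), SN1 (−0.95) or UH1 (−0.99). Of secreted EC proteins Vwf changed by 1.08, and was not called after quantile normalization (0.80) or without SH3 (0.98) or UH3 (0.98). The change of Cdkn2a was 1.23, and was not called after median-of-ratios scaling (0.89).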

How the results depend on the processing

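With 3 libraries a group and unknown depth, small differences of low genes cannot be resolved. In SH against UH, no gene called both as reported and under an alternative changed its sign. With a pseudocount of 0.1, SH against UH gave 2810 higher and 1550 lower genes, and SN against UN 990 and 2402. The change with oxygen was called more positive for 903 and more negative for 783 genes after median-of-ratios scaling, and for 772 and 745 after quantile normalization. Leaving out 1 library at a time, SH against UH ranged from 1299 to 1626 higher and from 940 to 1117 lower genes, Tek from 1.76 to 1.85, and the change with oxygen from 1266 to 2110 more positive and from 335 (without UN2) to 636 (without UN1) more negative genes. Replicate numbers did not pair the libraries (r of residuals from −0.0631 to 0.0316 for same-numbered SH and UH), and a replicate block gave 1458 higher and 1009 lower genes.

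Of 1822 values of 122 named genes under alternatives, 1759 kept their sign and side of the threshold. Genes that turned their sign had differences near 0 and were not called as reported. After median-of-ratios scaling these were P4ha1 (−0.1139), Bnip3 (−0.1424) and Ccnb2 (−0.0041), after quantile normalization Vegfa (0.0515), Kdr (−0.0332) and B2m (0.0535), and after rescaling without mitochondrial and the 20 highest genes Nfe2l2 (0.0348), Yap1 (0.0252), Pcna (0.0341) and B2m (0.0106). With 1 library left out, Vegfa ranged from −0.2345 to 0.0846, Nfe2l2 from −0.09 to 0.0598, Fn1 from −0.0021 to 0.4475, Yap1 from −0.1801 to 0.1276, Pcna from −0.2089 to 0.1666 and B2m from −0.1493 to 0.0361. Of 48 named genes whose difference changed with oxygen, at most 4 lost that call under any one alternative, with Acta2 (11 of 20 alternatives) and Aldoc (9) losing it most often. The genes concerned were Acta2, Aldoc, Car12, Ccnb2, Cebpd, Cdkn2a, Hgfac, Lox, Loxl2 and Vwf. The causes were not tested.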
